A study of Mus musculus with 16 samples.

Results

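The genes described here encode 8 chains of the receptors for the common gamma chain cytokines and for the alarmins TSLP and IL-25: Il7r, Il2ra, Il2rb, Il2rg, Il4ra, Il9r, Crlf2 and Il17rb. They were chosen by name and found by their Ensembl identifiers among the 51912 genes of the count table, and all 8 were among the 14979 genes that passed the filter on low counts. The counts came from bulk mRNA-Seq of group 2 innate lymphoid cells (ILC2s) sorted from the lungs of WT mice and of Pac1-/- mice (labelled Pac1-KO), which lack the phosphatase PAC1 encoded by Dusp2 in all tissues. The mice were 6 to 8 weeks old and matched for age and sex. ILC2s of each genotype were stimulated for 4 hours with IL-7, with IL-7 plus IL-33, with IL-7 plus IL-33 plus the neuropeptide CGRP, or with IL-7 plus IL-33 plus the neuropeptide NMU. Every group therefore received IL-7, the ligand of one of the receptors described, and no group was left without it. The study's culture method expanded sorted ILC2s for 1 to 2 weeks with IL-2 and IL-7 and then withdrew both, so that the cells had also met IL-2. Each of the 8 combinations had 2 libraries of about 500 ILC2s, and all 16 were used.

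The common gamma chain, encoded by Il2rg, is a shared signaling subunit. It pairs with the IL-7 receptor alpha chain (Il7r), with the IL-2 receptor alpha and beta chains (Il2ra and Il2rb), with the IL-4 receptor alpha chain (Il4ra), and with the IL-9 receptor (Il9r), and the kinases JAK1 and JAK3 then activate STAT proteins. The TSLP receptor consists of Crlf2 and Il7r, and the IL-25 receptor contains Il17rb. ILC2s depend on IL-7 for development and survival, and the high-affinity IL-2 receptor, IL-9, TSLP and IL-25 are known to sustain or activate them. CGRP restrains ILC2s through a cAMP-raising receptor, whereas NMU activates them together with alarmins.

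The libraries held 6764992 to 15963357 counted reads (median 11071278), and 3 counts equaled 0.171 to 0.462 CPM (counts relative to the library total, scaled by edgeR's TMM factors). The targeted gene Dusp2 had 57 counts in 1 WT library with IL-7 (replicate 2), 29 counts in 1 WT library with NMU (replicate 1), and 0 counts in the other 14 libraries, so that its counts could not check most genotype labels. The ILC2 markers were present: all 9 on the list (among them Gata3, Il1rl1, Rora and Klrg1) had counts. Of 7 T cell markers, Cd8a had 0 counts in all 16 libraries and Cd4 in 15. The list summed to 203 to 839 CPM, mostly from Trbc2 (mean 369 CPM), followed by Cd3g (119 CPM) and Cd3d (29.4 CPM). Trbc2, Cd3g and Cd3d had counts in every library. The 3 B cell markers summed to 0 to 119 CPM, the 4 myeloid markers to 1.19 to 123 CPM, and the 3 epithelial markers to 11.2 to 308 CPM. Nothing in the labels says that the replicates came from separate animals, so P values measure only the spread between these libraries, which may be technical.

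Of the 8 receptor genes, 3 were abundant and 5 were not. Per kilobase of annotated exon, Il2rg led with a mean level of 332 ± 137 CPM per kb (SD, n = 16 libraries), followed by Il2ra with 227 ± 69.7 and Il7r with 155 ± 53.8. Il2rb, the IL-2 receptor subunit that also serves IL-15, followed at 9.42 ± 4.31 CPM per kb. Il9r had a mean of 4.39 ± 2.78, Il17rb of 2.95 ± 2.24, Il4ra of 2.82 ± 1.52, and Crlf2 of 1.93 ± 1.23 CPM per kb. Il7r was above Il2rb in 16 of 16 libraries, whereas Il2rg exceeded Il2ra in 13 and Il2ra exceeded Il7r in 12. Il9r was above Il17rb in 8 of 16 libraries and Il17rb above Il4ra in 6, so that the order of these low genes was not resolved beyond their spread. The order of the means was the same with the longest transcript as the length.

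**Figure D1:**
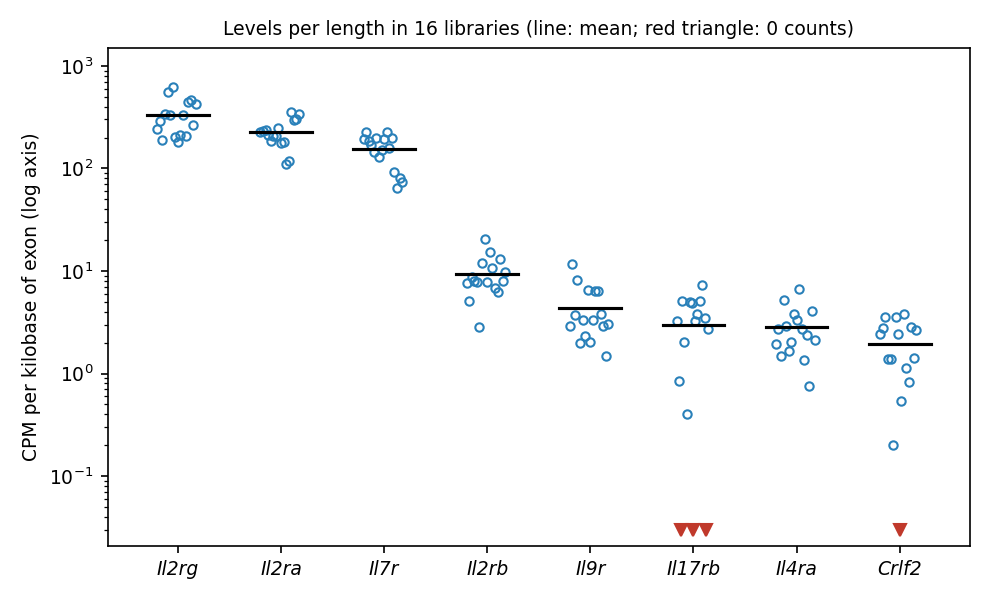
Level of each receptor gene per kilobase of exon (CPM per kb, log axis) in the 16 libraries. Circles are libraries, black lines are means, and red triangles mark libraries with 0 counts. Il2rg, Il2ra and Il7r lie above the 5 other genes, with means of 332, 227 and 155 CPM per kb against at most 9.42.

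The chains that complete these receptors and the kinases below them were unequally measured. Il13ra1, which with Il4ra forms the receptor for IL-13, had 0 counts in all 16 libraries, and Il21r, another partner of the common gamma chain, averaged 0.0157 CPM per kb. The IL-15 receptor chain Il15ra averaged 3.93 CPM per kb and Il17ra, the partner of Il17rb, 2.11 CPM per kb, while Il1rl1, which encodes the IL-33 receptor, averaged 120 CPM per kb. Jak1 and Jak2, at 59.5 and 55.7 CPM per kb, stood above Jak3, the kinase bound by the common gamma chain, at 0.377 CPM per kb. Stat6, activated through Il4ra, averaged 10.1 CPM per kb, and Stat5a and Stat5b, activated by IL-2 and IL-7, averaged 1.14 and 1.71 CPM per kb.

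Il7r and Il2ra differed in opposite directions between NMU and CGRP. Il7r (ENSMUSG00000003882, chr15:9505788-9530176, minus strand) encodes the chain that binds IL-7 and also serves TSLP. Il2ra (ENSMUSG00000026770, chr2:11642807-11693193, plus strand) encodes CD25, which raises the affinity of the IL-2 receptor and is itself raised by IL-2 in lymphocytes. Both positions are from GENCODE M21 on GRCm38, the mm10 build. The 250 bases before each RefSeq start (GRCm38.p6) are shown because these were the 2 receptor genes that passed the test in any treatment contrast. Capitals mark the letters of any of 5 motifs searched on both strands: TTCNNNGAA (STAT), TGACG (CRE half-site), TGANTCA (AP-1), an NF-kB motif and GGAAA (NFAT core). The Il2ra stretch is chr2:11642542-11642791 on the plus strand and the Il7r stretch chr15:9529877-9530126 on the minus strand, each written 5′ to 3′ along the gene. The 2 annotations differ for Il7r: its RefSeq start is downstream of its GENCODE start, so that the stretch lies inside the GENCODE gene.
Il2ra: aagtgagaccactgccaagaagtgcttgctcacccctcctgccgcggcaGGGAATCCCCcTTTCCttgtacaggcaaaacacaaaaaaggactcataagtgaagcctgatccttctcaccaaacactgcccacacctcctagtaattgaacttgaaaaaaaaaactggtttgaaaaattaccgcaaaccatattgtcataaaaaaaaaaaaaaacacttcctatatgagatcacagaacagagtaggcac
Il7r: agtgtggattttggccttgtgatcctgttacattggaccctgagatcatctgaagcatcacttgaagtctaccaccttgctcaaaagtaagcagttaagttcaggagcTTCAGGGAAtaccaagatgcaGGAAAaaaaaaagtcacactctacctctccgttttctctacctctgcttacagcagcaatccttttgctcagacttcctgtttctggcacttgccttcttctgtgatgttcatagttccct

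In the Il2ra stretch, GGGAATCCCC matched the NF-kB motif at 201 bases before the start, and GGAAA matched on the opposite strand at 190 bases. In the Il7r stretch, TTCAGGGAA matched the STAT motif at 142 bases and GGAAA at 121 bases before the RefSeq start. Both lie within the gene as GENCODE annotates it. Of 32841 promoter windows of the same length, 3.44% held the NF-kB motif, 7.02% the STAT motif, 6.75% the AP-1 motif, 17.8% the CRE half-site and 55.6% GGAAA. Among the 7 receptor genes with an entry (Il2rb had none), TGACG matched in 0 and TGANTCA only in Il17rb, at 104 bases before the start. GGAAA was also found in the windows of Il2rg and Il4ra. These matches describe letters in the reference and are not binding sites measured here.

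Il7r was lowest in the NMU libraries. With NMU it had 427 and 299 CPM in WT and 372 and 345 CPM in Pac1-/- libraries. With IL-7 plus IL-33 alone it had 668 and 933 CPM in WT and 598 and 698 CPM in Pac1-/- libraries. All 4 NMU libraries thus lay below all 12 others, which reached from 598 to 1056 CPM. Between the NMU and the IL-33 libraries alone, 4.35% of all genes did not overlap, in one direction or the other. The share of genes set apart from all 12 was not counted. With both genotypes pooled, the log2 fold change of NMU added to IL-33 was −0.995 (SE 0.166, a 1.99-fold lower level), with an adjusted P of 0.0223 (edgeR quasi-likelihood test, Benjamini-Hochberg). A gene was called where its fold change was above 1.5 and its adjusted P under 0.05. Il7r ranked 12th of the 14979 genes tested by P value and was the only receptor gene called in this contrast, in which 0.154% of all genes were called and 0.02% were called lower. The call was lost in a fit of the 8 compared libraries alone (adjusted P = 0.294 by edgeR). It was also lost without the second WT IL-33 library (log2 fold change −0.89, edgeR adjusted P = 0.0624), without the first WT NMU library (−1.05, 0.0559), or without the second Pac1-/- NMU library (−1.01, 0.0698).

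Il2ra was highest in the NMU libraries. It reached 2016 and 1703 CPM in WT and 1734 and 1940 CPM in Pac1-/- libraries with NMU. With IL-33 alone it had 1050 and 1169 CPM in WT and 1180 and 1411 CPM in Pac1-/- libraries. No library outside the NMU group exceeded that last value, and the share of genes set apart from all other libraries was not counted. The 4 NMU libraries lay above the 4 IL-33 libraries, a separation that 4.35% of all genes showed in one direction or the other. The log2 fold change was 0.62 (SE 0.168), and edgeR's adjusted P of 0.284 did not pass the threshold. DESeq2's Wald test called Il2ra (adjusted P = 0.0308) among 257 of the 14979 genes, where edgeR called 23. Over the alternatives other than left-out libraries, the adjusted P values ranged from 0.0308 (DESeq2) to 0.527 (edgeR). The median log2 fold change of the 8 receptor genes in this contrast was −0.15, beside −0.08 over all genes.

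With NMU, Il2rg had 1061 and 1106 CPM in WT and 631 and 1007 CPM in Pac1-/- libraries, which overlapped the IL-33 libraries. Its log2 fold change was −0.11 (SE 0.318). The other 5 receptor genes had log2 fold changes between −0.72 (Il17rb) and 0.37 (Crlf2), each smaller than its standard error. In bulk libraries, fewer cells that express a gene and less of its RNA per cell cannot be told apart. The summed T cell markers were 364 to 839 CPM in the NMU and 203 to 514 CPM in the IL-33 libraries. Among them, Cd4 and Cd8a were at 0 in both. Trbc2 was 454 ± 194 against 280 ± 91.1 CPM, Cd3g 104 ± 40.9 against 84.8 ± 52.5 CPM, and Cd3d 7.12 ± 4.02 against 9.21 ± 4.46 CPM. The summed epithelial markers were 35.5 to 308 CPM with NMU and 42.2 to 83.3 CPM with IL-33. The summed myeloid markers were 2.79 to 123 CPM with NMU and 1.19 to 15.8 CPM with IL-33. Of these lists only Sftpc, a gene of alveolar epithelium, was called by edgeR, with 68.3 ± 85.9 CPM with NMU and 0 counts with IL-33, while the myeloid gene Lyz2 was 35.0 ± 53 against 0.0985 ± 0.116 CPM. The high myeloid and epithelial sums were those of the 2 WT NMU libraries. The Pac1-/- NMU libraries had 13.8 and 2.79 CPM of myeloid and 35.5 and 54.1 CPM of epithelial markers. Their T cell markers summed to 839 and 508 CPM, beside 567 and 364 CPM in the WT NMU libraries. In the Pac1-/- NMU libraries Il7r was 372 and 345 CPM and Il2ra 1734 and 1940 CPM. The part of other cells in the Il7r and Il2ra values was not tested.

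**Figure D2:**
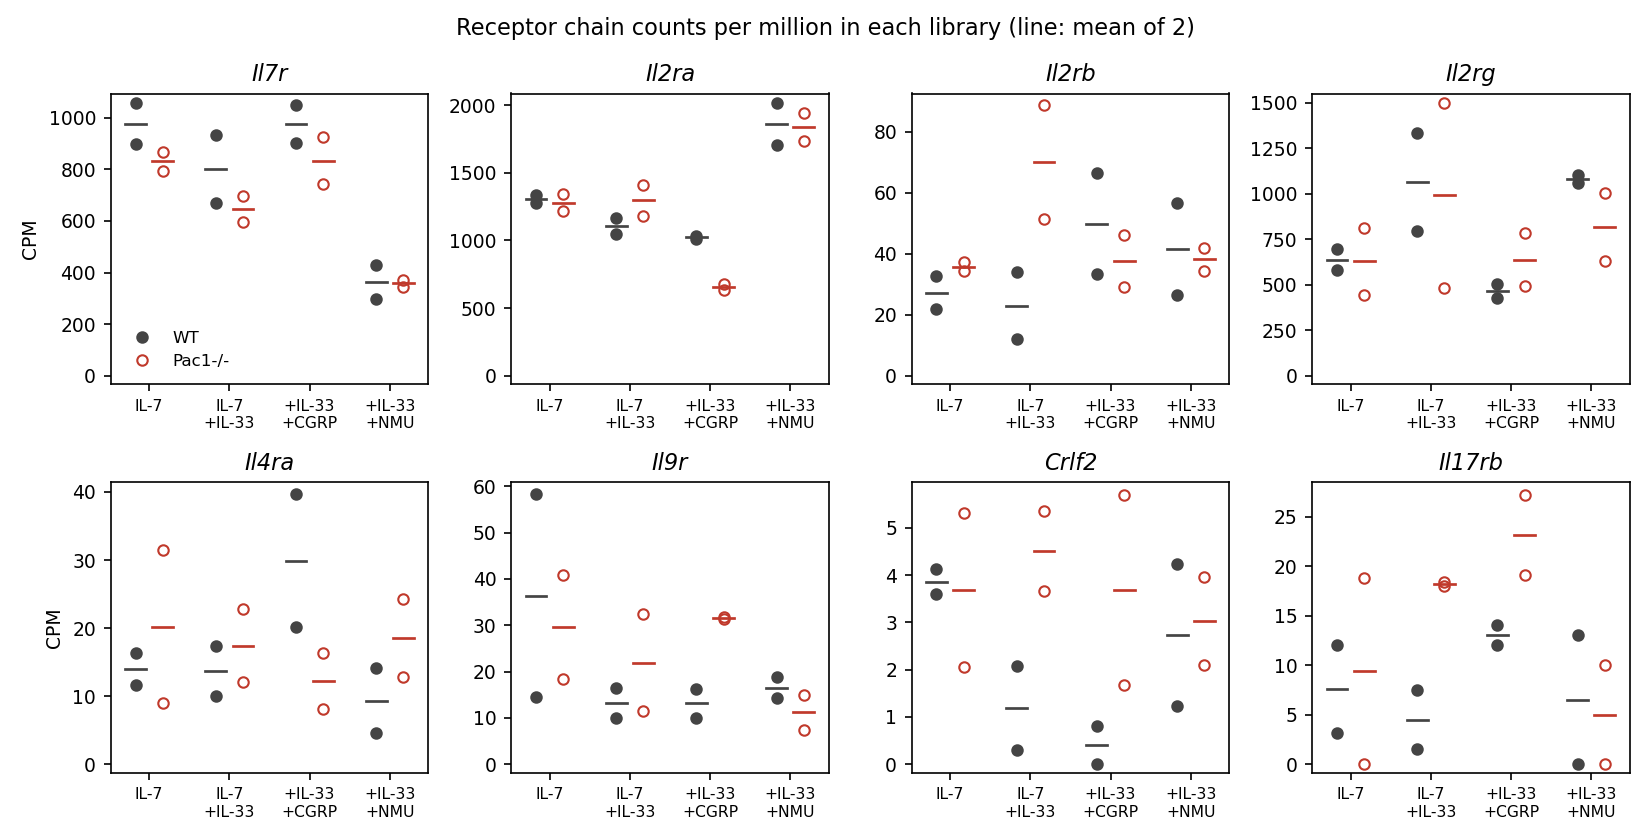
CPM of each receptor gene in each library by treatment, with filled black circles for WT, open red circles for Pac1-/- ILC2s and a line at the mean of 2 libraries. Il7r is between 299 and 427 CPM with NMU and at least 598 CPM elsewhere. Il2ra is between 1703 and 2016 CPM with NMU and at most 1411 CPM elsewhere. The share of all genes set apart from the other treatments in this way was not counted.

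CGRP added to IL-33 called none of the 8 receptor genes by edgeR and none by DESeq2 at the same cutoff, while edgeR called 2.46% of all genes. At an unadjusted P under 0.05, 2 of the 8 were counted, Il2ra and Il2rg, beside 15.8% of all genes. Il2ra had 1012 and 1032 CPM in WT and 634 and 677 CPM in Pac1-/- libraries with CGRP. These 4 values were below the 4 IL-33 values, as was found in one direction or the other for 9.71% of all genes. The pooled log2 fold change was −0.54 (SE 0.169, edgeR adjusted P = 0.123). Over the alternatives other than left-out libraries it was −0.56 to −0.50, with adjusted P values by edgeR or DESeq2 of 0.045 to 0.277. In none of them did Il2ra pass both the fold and the P cutoff. Of the markers of other cells edgeR called only Epcam, lower with CGRP (13.4 ± 8.13 against 66.8 ± 19.2 CPM). The summed B cell markers were 0.623 to 119 CPM with CGRP and 0 to 6.89 CPM with IL-33. The summed mast cell and basophil markers were 79.3 to 190 and 42.8 to 77.9 CPM. The part of other cells in the receptor gene values with CGRP was not tested.

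Il2rg, the common gamma chain (ENSMUSG00000031304, chrX:101264378-101268255, minus strand), varied more between replicates. It had 428 and 505 CPM in WT and 785 and 492 CPM in Pac1-/- libraries with CGRP. With IL-33 alone the values were 1337 and 798 CPM in WT, and 1498 and 484 CPM in Pac1-/- libraries, so that the groups overlapped. The log2 fold change was −0.90 (SE 0.321, edgeR adjusted P = 0.186), and it passed the cutoff only when no filter on low counts was applied (edgeR adjusted P = 0.000678) or when the second Pac1-/- IL-33 library was left out, with an adjusted P of 0.0265 by edgeR. Il7r with CGRP had 901 and 1050 CPM in WT and 742 and 926 CPM in Pac1-/- libraries. Its pooled log2 fold change was 0.32 (SE 0.164, edgeR adjusted P = 0.353).

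Set against each other, NMU and CGRP separated the 2 chains most. Il7r was lower with NMU, by a log2 fold change of −1.32 (SE 0.167, 2.5-fold, adjusted P = 0.000222), and Il2ra higher, by 1.15 (SE 0.17, 2.22-fold, adjusted P = 0.000804), both by the edgeR quasi-likelihood test with P values adjusted by Benjamini-Hochberg. Among all genes, 4.97% were called in this contrast. Both calls held with every normalization, filter, test and left-out library tried, with adjusted P values by edgeR or DESeq2 of at most 0.0108. Il2rg had a log2 fold change of 0.78 (SE 0.322, edgeR adjusted P = 0.196), and the 5 low genes had log2 fold changes between −1.51 (Il17rb) and 1.02 (Crlf2) with standard errors of 0.464 to 1.51. Sftpc was called higher in this contrast too, and the B cell marker sums of 0 to 4.79 CPM with NMU stood against 0.623 to 119 CPM with CGRP. The part of other cells in it was not tested. The contrast shares the NMU and CGRP libraries with the contrasts above, so it is not a further experiment.

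**Figure D3:**
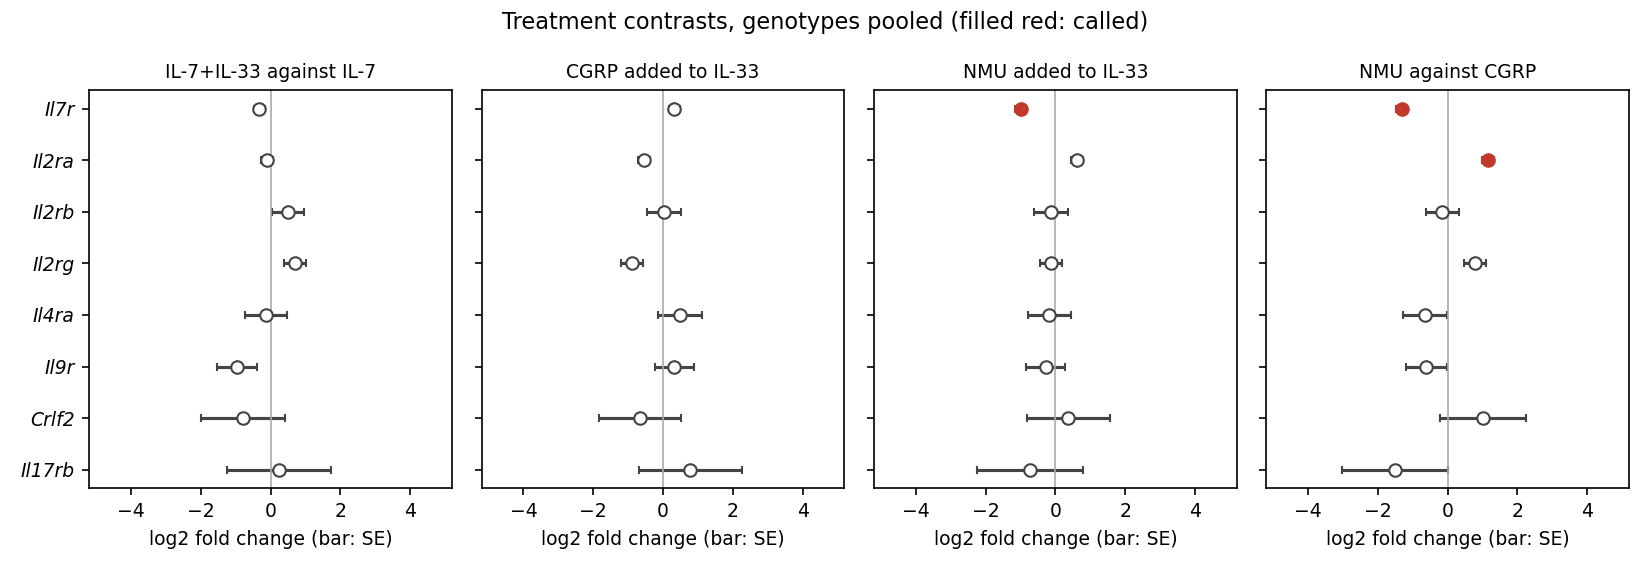
Log2 fold change of the 8 receptor genes in 4 treatment contrasts with both genotypes pooled, with bars of 1 standard error from edgeR and filled red points for genes that were called. Il7r is called with NMU added to IL-33 (−0.995), and Il7r (−1.32) and Il2ra (1.15) are called with NMU against CGRP.

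Divided by exon length, Il2ra was 1.03 to 1.26 times Il7r in the 4 IL-7 libraries and 1.02 to 1.65 times Il7r in the 4 IL-33 libraries. With CGRP the per-length ratio was 0.597 to 0.916, so that Il7r was the higher of the pair in 4 of 4 libraries. With NMU it was 3.81 to 4.65. The order of these ratios was the same in WT and Pac1-/- libraries: in WT they were 0.802 and 0.916 with CGRP and 3.85 and 4.65 with NMU, and in Pac1-/- ILC2s 0.597 and 0.697 with CGRP and 3.81 and 4.60 with NMU.

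**Figure D4:**
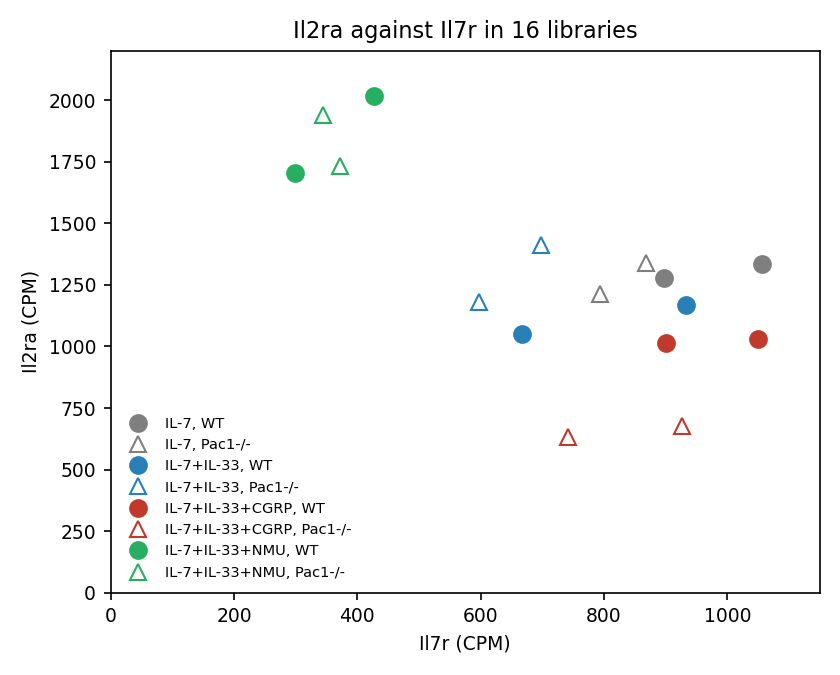
Il2ra against Il7r in CPM for the 16 libraries, colored by treatment, with filled circles for WT and open triangles for Pac1-/- ILC2s. The 4 NMU libraries lie apart at 299 to 427 CPM of Il7r and 1703 to 2016 CPM of Il2ra, and the 2 Pac1-/- CGRP libraries have the lowest Il2ra, 634 and 677 CPM.

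IL-33 added to IL-7 called none of the 8 receptor genes by edgeR and none by DESeq2, and edgeR called 0.0134% of all genes. With IL-7 alone Il7r had 898 and 1056 CPM in WT and 868 and 794 CPM in Pac1-/- libraries, and its log2 fold change with IL-33 was −0.32 (SE 0.164, edgeR adjusted P = 0.557). Il2ra had 1279 and 1333 CPM in WT and 1340 and 1214 CPM in Pac1-/- libraries, with a log2 fold change of −0.10 (SE 0.168). Il2rg, with 580, 696, 447 and 811 CPM in the same order, had a log2 fold change of 0.70 (SE 0.319), the only one of the 8 with an unadjusted P under 0.05 (edgeR adjusted P = 0.518), which 9.49% of all genes had. The summed T cell markers were 751 to 800 CPM with IL-7 and 203 to 514 CPM with IL-33. Among them Cd3d was 83.4 ± 13 and 9.21 ± 4.46 CPM and was not called (edgeR adjusted P = 0.0605). The summed epithelial markers were 14.2 to 41 and 42.2 to 83.3 CPM. The part of other cells in the receptor gene values was not tested.

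Loss of PAC1 was not accompanied by a called change in any of the 8 receptor genes, over all treatments or within one, by edgeR. Over all treatments, edgeR called 0.0801% of all genes, and neither an unadjusted P under 0.05, found for 6.15% of all genes, nor a DESeq2 call was found among the 8. Il7r was 779 ± 285 CPM in WT and 668 ± 216 CPM in Pac1-/- libraries (SD, n = 8), with a log2 fold change of −0.20 (SE 0.116) for Pac1-/- relative to WT and an edgeR adjusted P of 0.878. For Il2ra the means were 1324 ± 360 and 1266 ± 456 CPM, and the log2 fold change was −0.12 (SE 0.119). Each genotype holds all 4 treatments.

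Within CGRP, Il2ra was lower in Pac1-/- (634 and 677 CPM) than in WT ILC2s (1012 and 1032 CPM), by a log2 fold change of −0.64 (SE 0.186), with an edgeR adjusted P of 0.365. Here edgeR called 0.107% of all genes. With 2 libraries against 2, the genotypes did not overlap for 5 of the 8 receptor genes and for 33.2% of all genes, and Il2ra was the only one of the 8 with an unadjusted P under 0.05, as 7.8% of all genes had. DESeq2 called Il2ra (adjusted P = 0.0243) among 393 of the 14979 genes, where edgeR called 16. Over the alternatives other than left-out libraries, its adjusted P was 0.0243 (DESeq2) to 0.552 (edgeR). The summed B cell markers were 108 and 119 CPM in these Pac1-/- and 0.623 and 16.3 CPM in the WT libraries. All 3 B cell genes were higher in both Pac1-/- libraries, with a median log2 fold change of 3.77 and none called by edgeR. The summed mast cell and basophil markers were lower in Pac1-/- (79.3 and 83.9 CPM) than in WT libraries (151 and 190 CPM). So were the summed epithelial (11.2 and 13.2 against 25.1 and 20.3 CPM) and T cell markers (347 and 341 against 388 and 386 CPM). The part of other cells in the Il2ra value was not tested. With IL-7, IL-33 and NMU the Il2ra log2 fold changes between genotypes were −0.03, 0.22 and −0.02, each with an SE of 0.185, and edgeR called 0.00668%, 0.00668% and 0.02% of all genes.

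The CGRP response within each genotype was examined after these values were seen. Il2ra fell by 0.98 on the log2 scale in Pac1-/- ILC2s (SE 0.186, 1.98-fold, edgeR adjusted P = 0.0242), a contrast in which 1.14% of all genes were called. In WT ILC2s its log2 fold change was −0.12 (SE 0.185, edgeR adjusted P = 0.88), with 0.461% of genes called. The test of the difference between these responses gave −0.86 (SE 0.262) with an edgeR adjusted P of 0.764, and edgeR called 0% of all genes for it, with 6.04% at an unadjusted P under 0.05. By DESeq2 the difference was called for Il2ra (adjusted P = 0.0484) among 120 of the 14979 genes. Over the alternatives other than left-out libraries, its adjusted P ranged from 0.0484 (DESeq2) to 0.889 (edgeR). The call in Pac1-/- ILC2s was lost without either CGRP library (edgeR adjusted P = 0.167 and 0.159), without the second IL-33 library (edgeR adjusted P = 0.148), or with the compared libraries alone (edgeR adjusted P = 0.288). The B cell marker sums of 108 and 119 CPM in the Pac1-/- CGRP libraries stood against 6.89 and 1.47 CPM in the Pac1-/- IL-33 libraries. The epithelial gene Epcam was called lower in the same contrast (8.49 ± 3.78 against 74.1 ± 9.58 CPM, n = 2). The part of either in the Il2ra value was not tested.

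The NMU response of Il7r within each genotype, also examined after the values were seen, did not pass the cutoff in either genotype by edgeR. The log2 fold changes were −1.14 (SE 0.247) in WT and −0.85 (SE 0.245) in Pac1-/- ILC2s, with edgeR adjusted P values of 0.451 and 0.355. The difference between them was 0.28 (SE 0.345). In these contrasts edgeR called 0.0134% and 0.107% of all genes. DESeq2 called 37 and 218 of the 14979 genes, among them Il7r in both (adjusted P = 0.00379 and 0.00888).

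**Figure D5:**
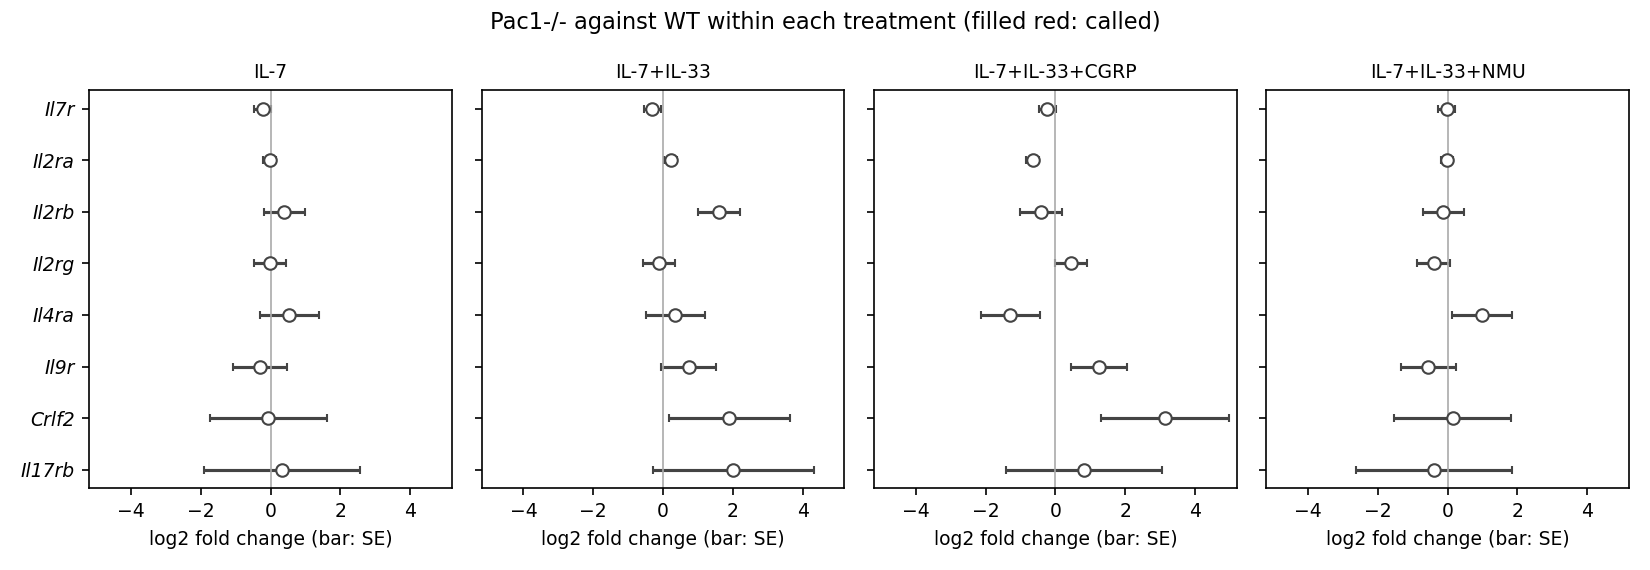
Log2 fold change of Pac1-/- against WT ILC2s for the 8 receptor genes within each treatment, with bars of 1 standard error from edgeR, 2 libraries against 2. No gene is called; Il2ra with CGRP (−0.64, SE 0.186) and Il2rb with IL-33 (1.60, SE 0.607) lie farthest from 0 relative to their standard errors.

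Il2rb (ENSMUSG00000068227, chr15:78479256-78495271, minus strand) encodes the signaling chain shared by the IL-2 and IL-15 receptors. With IL-33 it had 33.8 and 12.1 CPM in WT and 51.4 and 88.6 CPM in Pac1-/- libraries. The log2 fold change of Pac1-/- against WT was 1.60 (SE 0.607, edgeR adjusted P = 0.95), and DESeq2 did not call it. In the other treatments its levels were 21.7 to 66.4 CPM in both genotypes. The CGRP response of Il2rb differed between genotypes by −2.01 (SE 0.846, edgeR adjusted P = 0.807), the second of the 8 with an unadjusted P under 0.05 for that difference.

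Il4ra (ENSMUSG00000030748, chr7:125552120-125579474, plus strand), which binds IL-4 and IL-13 with its partners, ranged from 4.57 to 39.7 CPM. Il9r (ENSMUSG00000020279, chr11:32187541-32200279, minus strand), the receptor for a growth factor that ILC2s secrete themselves, ranged from 7.36 to 58.3 CPM. The replicate beside its highest value, both from WT ILC2s with IL-7, had 14.5 CPM. With CGRP, Il9r had 10.1 and 16.3 CPM in WT and 31.8 and 31.3 CPM in Pac1-/- libraries, with a log2 fold change of 1.26 (SE 0.794, edgeR adjusted P = 0.647).

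The alarmin receptor chains were the least measured. Crlf2 (ENSMUSG00000033467, chr5:109554709-109558993, minus strand), the TSLP-binding chain, had 0 to 94 counts per library, or 0 to 5.68 CPM, with 0 counts in the second WT CGRP library. Il17rb (ENSMUSG00000015966, chr14:29996135-30008896, minus strand), the IL-25-binding chain, had 0 counts in 3 libraries and 27.2 CPM in another. Its zeros fell in the first Pac1-/- IL-7, the first WT NMU and the second Pac1-/- NMU library, each beside a replicate of at most 18.9 CPM. No pooled treatment or genotype contrast of either gene was called by edgeR: their standard errors in the pooled treatment contrasts were 1.18 to 1.52 on the log2 scale.

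The spread between replicates was larger for the low genes than for the abundant ones, but it also differed between genes of similar level. The within-group SD of log2 CPM was 0.115 for Il2ra, smaller than for all but 0.102% of the 4880 genes averaging 20 CPM or more, and 0.221 for Il7r, with 4.63% of those genes below it. Il2rg, as abundant as these, had an SD of 0.558, above the median of 0.487. The SDs of Il2rb, Il9r and Il4ra were 0.603, 0.779 and 0.798, and those of Crlf2 and Il17rb 1.09 and 2.81. Il2rg and Il4ra each share exon positions with another annotated gene (Gm20489 and Gm44876) that had at most 21 and 18 counts per library. Il17rb overlaps exons of Actr8 on the opposite strand, which had 12 to 399 counts, and whether counting used strand is not given in the sources used here.

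Genes of the same pathways were counted from lists chosen with earlier results known. Of 10 ligand genes, 6 were tested, and with NMU 4 were called higher and 0 lower by edgeR, beside 0.134% and 0.02% of all genes. Il9, a growth factor for mast cells and ILC2s, was 3275 ± 1130 CPM with NMU and 179 ± 85.6 CPM with IL-33 alone (SD, n = 4). Il13 was 226 ± 115 against 30.0 ± 8.34 CPM, Il4 was 82.0 ± 28.9 against 8.63 ± 2.22 CPM, and Il2, which signals through Il2ra, Il2rb and Il2rg, was 140 ± 105 against 3.33 ± 1.82 CPM. With CGRP, 2 ligand genes were called higher and 1 lower, beside 1.64% and 0.821% of all genes: Il2 reached 264 ± 32.8 CPM and Il4 112 ± 28.2 CPM, while Il9 was 13.6 ± 17.7 CPM. Il2 was thus higher with either neuropeptide, while Il2ra was 838 ± 212 CPM with CGRP and 1848 ± 154 CPM with NMU. With CGRP, Il9 was also called lower in Pac1-/- (0.535 ± 0.391 CPM) than in WT ILC2s (26.6 ± 16.3 CPM, n = 2), as 0.0668% of all genes were, with the Pac1-/- level near the 3-count floor.

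Among 8 targets and feedback genes of these receptors, Socs2, a suppressor of STAT5 signaling, was called higher with CGRP (264 ± 39.5 against 120 ± 26.7 CPM). With NMU against CGRP, Socs2 (77.7 ± 8.39 against 264 CPM) and the survival gene Bcl2 (17.4 ± 6.48 against 62.8 ± 24.9 CPM) were called lower and none higher, beside 2.49% and 2.48% of all genes. Cish, a STAT5 target, was 91.9 ± 28.6 CPM with NMU and 110 ± 22.1 CPM with CGRP and was not called. None of the 10 kinase, STAT and adaptor genes was called by edgeR in any of the 4 pooled treatment contrasts, with 0, 2, 0 and 2 at an unadjusted P under 0.05 for IL-33, CGRP, NMU, and NMU against CGRP, where all genes had shares of 9.49%, 15.8%, 6.74% and 19.8%. Of the 4 partner chains tested, Il1rl1 was called lower with NMU against CGRP (538 ± 26.8 against 1166 ± 125 CPM), like Il7r.

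Over the 16 libraries, the gene most like each receptor gene other than Il17rb was found by Pearson correlation of log2 CPM among the 4880 genes above. The libraries share their treatments, so these values are descriptions without a test. Il7r was closest to the transcription factor gene Maf (0.944) and Il2ra to Il9 (0.95). Il2rg was closest to Mif4gd (0.909) and Crlf2 to Napg (0.918). Il2rb, Il9r and Il4ra had lower maxima, 0.775 with Tinf2, 0.752 with Atrx and 0.712 with Irf2. By Spearman correlation the closest gene was the same only for Crlf2 among these 7.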

How the data were processed

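Bulk mRNA-Seq libraries of about 500 ILC2s each were analysed. According to the study's methods, the authors amplified full-length cDNA, sequenced paired-end reads and aligned them to mm10 (HISAT2). What they deposited is 1 table of unnormalized counts, by Ensembl gene and library. The counting tool, annotation and use of strand are not given in the sources used here, and no molecular identifiers are described, so that floors cover counting error only. Columns were mapped to groups by the sample titles. The receptor genes, lists and tests were chosen with earlier results of these data known.

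Counts were analysed in R 4.3.3 with edgeR 4.0.16 (TMM normalization, filterByExpr by group, quasi-likelihood test, Benjamini-Hochberg adjustment over 14979 genes). All 16 libraries entered 1 fit, with genotype plus treatment for pooled contrasts and 8 group means for contrasts within a genotype or treatment and for their differences. Genes were called at a fold change above 1.5 and an adjusted P value under 0.05. Log2 CPM used a prior count of 2. The alternatives tried were DESeq2 1.42.0, RLE size factors, no filter or a mean of at least 10 counts, no fold cutoff, the labels' replicate number as a block, a fit of only the compared libraries, and leaving out each library in turn. The genes named were the receptor genes, Dusp2, the listed pathway genes that were called or carried a comparison, and the gene most like each receptor gene, which for Il17rb is not reported here.

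The test was checked on simulated counts modelled on the NMU contrast (13961 genes, 200 changed). The changed genes were drawn from those averaging 20 CPM or more, a range that leaves out Il4ra, Il17rb and Crlf2. The rates are averages over such genes, most of which varied more between replicates than Il2ra and Il7r. Counts were drawn with edgeR's own estimate of each gene's spread, so that the comparison with DESeq2 is not neutral. EdgeR recovered 15% of 2-fold and 70% of 4-fold changes, with 1.16% of its calls in unchanged genes. DESeq2 recovered 23% and 85%, with 40.3% of its calls in unchanged genes. Modelled on the genotype contrast within CGRP (13929 genes), edgeR recovered 0% of 2-fold and 22% of 4-fold changes, with 0% of its calls in unchanged genes. Here DESeq2 recovered 8% and 62%, with 47.8% of its calls in unchanged genes.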

Additional observations from a re-analysis of the deposited data

Results flagged for a closer look

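In 3 of 52 groups of 4 or 8 libraries examined, 1 library stood far above the others, by a gap that chance alone gives in about 1 in 20 groups. Il2rb was 88.6 CPM in the second Pac1-/- IL-33 library, the highest of the 8 Pac1-/- libraries. Il4ra was 39.7 CPM in the second WT CGRP library, and Il9r was 58.3 CPM in the second WT IL-7 library, each the highest of the 8 WT libraries. Each group of 8 holds all 4 treatments, and no group of 4 libraries of 1 treatment was singled out in this way.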

How the results depend on the processing

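The limits are those of 2 libraries per group. In simulated data, with changed genes averaging 20 CPM or more, edgeR recovered 15% of 2-fold changes for the pooled NMU response. For genotype with CGRP it recovered 0%, so that a gene not called is not shown to be unchanged. Il7r, Il2ra and Il2rg never fell below 2687 counts, whereas Crlf2 and Il17rb reached 0. Where a count below moved, the cause was not tested.

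By edgeR, the numbers of genes called were 2 for the pooled IL-33 response, 368 for the pooled CGRP response, 23 for the pooled NMU response, 744 for NMU against CGRP, 12 for genotype over all treatments, 1 for genotype with IL-7, 1 for genotype with IL-33, 16 for genotype with CGRP, 3 for genotype with NMU, 0 for the difference in IL-33 response between genotypes, 0 for the difference in CGRP response, 0 for the difference in NMU response, 69 for the WT CGRP response, 171 for the Pac1-/- CGRP response, 2 for the WT NMU response and 16 for the Pac1-/- NMU response. By DESeq2 they moved to 173 for the pooled IL-33 response, 1078 for the pooled CGRP response, 257 for the pooled NMU response, 1706 for NMU against CGRP, 78 for genotype over all treatments, 63 for genotype with IL-7, 27 for genotype with IL-33, 393 for genotype with CGRP, 47 for genotype with NMU, 16 for the difference in IL-33 response between genotypes, 120 for the difference in CGRP response, 24 for the difference in NMU response, 619 for the WT CGRP response, 753 for the Pac1-/- CGRP response, 37 for the WT NMU response and 218 for the Pac1-/- NMU response. Without a filter they were 163 for the pooled IL-33 response, 705 for the pooled CGRP response, 101 for the pooled NMU response, 62 for genotype over all treatments, 21 for genotype with IL-7, 26 for genotype with IL-33, 183 for genotype with CGRP, 39 for genotype with NMU, 21 for the difference in IL-33 response between genotypes, 70 for the difference in CGRP response, 53 for the difference in NMU response, 306 for the WT CGRP response, 396 for the Pac1-/- CGRP response, 39 for the WT NMU response and 109 for the Pac1-/- NMU response. With a mean of at least 10 counts the number was 5 for the pooled IL-33 response, and with RLE size factors it was 5 for genotype with NMU. In fits of the compared libraries alone they were 6 for the pooled IL-33 response, 230 for the pooled CGRP response, 13 for the pooled NMU response, 495 for NMU against CGRP, 0 for genotype with CGRP, 0 for the WT CGRP response, 0 for the Pac1-/- CGRP response and 3 for the Pac1-/- NMU response.

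The receptor genes called changed as follows. DESeq2 called 2 with NMU (Il7r and Il2ra), 2 in the WT NMU response (the same pair), 1 in the Pac1-/- NMU response (Il7r), 1 in genotype with CGRP and 1 in the difference in CGRP response (Il2ra in both). Without a filter 1 was called in the pooled and 1 in the WT CGRP response (Il2rg), the pooled log2 fold change of Il2rb with CGRP was −0.0041 and the difference in CGRP response of Il7r −0.012, both reversed from near 0, and Il2rg had an adjusted P of 0.00672 in NMU against CGRP by edgeR. In fits of the compared libraries alone, 0 were called in the pooled NMU response and 0 in the Pac1-/- CGRP response. The level of Il2rg per kb of its longest transcript was 474 CPM per kb.

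With the replicate number of the labels as a block, 0 genes were called for the pooled IL-33 response and 10 for genotype with CGRP, and no call of a receptor gene changed. The labels do not say what the numbers share. Over the 28 pairs of groups, the deviations of same-numbered libraries correlated at −0.254 to 0.223, with 4 pairs over 0.1 and 5 under −0.1, so that the numbers were not treated as pairs.

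After leaving out 1 library at a time, the numbers of genes called ranged from 3 to 18 for the pooled IL-33 response, 180 to 422 for the pooled CGRP response, 19 to 44 for the pooled NMU response, 462 to 792 for NMU against CGRP, 1 to 18 for genotype with IL-7, 2 to 6 for genotype with IL-33, 40 to 237 for genotype with CGRP, 5 to 13 for genotype with NMU, 0 to 6 for the difference in IL-33 response between genotypes, 1 to 126 for the difference in CGRP response, 1 to 5 for the difference in NMU response, 43 to 293 for the WT CGRP response, 123 to 409 for the Pac1-/- CGRP response, 1 to 19 for the WT NMU response and 17 to 60 for the Pac1-/- NMU response. Where a group was left with 1 library, it was assumed to vary like the other groups. The filter on low counts was rerun in each of these fits and was looser, because its smallest group then held 1 library. The ranges therefore reflect a changed filter as well as a missing library. Signs of log2 fold changes were compared for all receptor genes in the pooled contrasts and in genotype over all treatments. In the other contrasts they were compared only for Il7r and Il2ra, and in some for Il2rb. The number of receptor genes called ranged from 0 to 1 for the pooled CGRP response, 0 to 1 for the pooled NMU response and 0 to 1 for the Pac1-/- CGRP response. The log2 fold changes that changed sign, of which none was called, ranged from −0.39 to 0.34 for Il4ra, −0.23 to 0.93 for Il17rb in the pooled IL-33 response, −0.37 to 0.47 for Il2rb, −0.066 to 0.82 for Il4ra in the pooled CGRP response, −0.50 to 0.31 for Il2rb, −0.35 to 0.17 for Il2rg, −0.57 to 0.13 for Il4ra, −0.52 to 0.13 for Il9r, −0.33 to 0.69 for Crlf2 in the pooled NMU response, −0.51 to 0.26 for Il2rb in NMU against CGRP, −0.17 to 0.11 for Il2rg, −0.072 to 0.39 for Il4ra in genotype over all treatments, −0.10 to 0.10 for Il2ra in genotype with IL-7, −0.26 to 0.27 for Il7r, −0.14 to 0.12 for Il2ra in genotype with NMU, −0.29 to 0.18 for Il7r in the difference in IL-33 response between genotypes, −0.19 to 0.29 for Il7r in the difference in CGRP response and −0.000503 to 0.56 for Il7r in the difference in NMU response.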
